A study of Mus musculus with 8 samples.

Results

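Annexins are a family of proteins that bind phospholipid membranes when calcium is present and that act at the cell surface, in vesicle traffic and in the repair of torn membranes. Annexin A2, the product of Anxa2, binds the small adaptor S100a10 and links membranes to the actin cytoskeleton, and at the cell surface that pair binds plasminogen and its activators. Most annexins share a core of repeats that binds calcium and lipid, and differ in the N-terminal region through which they meet partner proteins.

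The genes described are the 10 annexins Anxa1 to Anxa9 and Anxa11, taken by their symbols from the 24505 genes in each library. They were chosen by their naive RPKM, because Anxa2 and Anxa8 were higher in the libraries labelled knockout of that state, so the naive values below are given as a description, without a test, and the primed values are tested. All 10 passed the filter on low values (at least 1 RPKM in at least 2 of the 8 libraries), as 13428 genes did, and Anxa8 passed it through its naive libraries alone. RPKM is a read count scaled to gene length and to library size, and so a level per length.

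The study profiled total RNA after ribosomal RNA removal from 1 mouse embryonic stem cell line, INO80 CKO, in which the gene for INO80, the ATPase of a chromatin-remodelling complex, can be deleted. The 8 libraries formed 4 groups of 2, labelled knockout and wild type in the naive and in the primed state of pluripotency. Naive cells were kept with PD0325901, CHIR99021 and LIF on gelatin, and primed cells with FGF-2, Activin A and XAV-939 on fibronectin. Deletion was induced by 2 days of 4-OHT at 100 nM and a further 2 days without it. The labels do not say whether wild-type cells also received 4-OHT. They do not say either whether both libraries of a group come from different cultures, and a p-value then covers the spread of libraries only, which may be technical. In the fit to deposited values, a gene's SE came from a spread shared by genes of like level over all 8 libraries. The gene's own replicates set neither that SE nor the p-value.

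Ino80 itself stood at 17.0 and 14.5 RPKM in naive wild type and at 15.9 and 15.1 in the naive libraries labelled knockout, so in that state its level did not set the groups apart. Each value covers the whole gene, so it cannot show whether a part of the gene was deleted. In primed cells it stood at 15.9 and 20.3 RPKM in wild type against 9.12 and 8.74 in knockout (log2 difference -0.93, limma with Benjamini-Hochberg adjustment, adjusted p = 2.0e-06), with -0.26 after quantile normalization of the state (adjusted p = 2.4e-04). The deposited values hold no read counts, so the depth of each library is unknown. Between the primed groups the whole transcriptome was offset, with a median log2 difference of -0.53 over all genes tested, against 0.05 between the naive groups. Primed differences are therefore given as deposited and after quantile normalization within the state, which forces all libraries of the state to 1 distribution. For the annexins they are also given relative to that median, and primed Ino80 lay at -0.40 relative to it.

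In the naive state, Anxa2 stood at 5.95 and 4.43 RPKM in the wild type and at 20.0 and 18.1 in the libraries labelled knockout. The groups did not overlap, and the means of 5.19 ± 1.08 and 19.0 ± 1.34 RPKM (SD, n = 2 each) differed 3.66-fold, with a log2 difference of 1.70 ± 0.14 (SE). Anxa8, an annexin known mainly from epithelia, stood at 8.44 and 6.94 RPKM in the wild type and at 25.3 and 24.0 in the libraries labelled knockout. Its groups did not overlap either, at 7.69 ± 1.07 and 24.7 ± 0.96 RPKM (SD, n = 2 each), a 3.21-fold difference and a log2 difference of 1.57 ± 0.28 (SE). These 2 genes named the family, and their naive values are what chose them. Anxa8 lies within another gene of the annotation, A630023A22Rik, whose level was 0.0163 to 0.259 RPKM over the 8 libraries.

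The sequences just upstream of these 2 genes are shown because they led in the same naive libraries, and that of Anxa11 because it had the lowest primed difference among the annexins on the log2(RPKM + 1) scale, although the ratio of means was lower for Anxa9 (0.285 against 0.325). Each is the 250 bases before the annotated RNA start in RefSeq's GRCm38.p6, on the plus strand: chr9:69453433-69453682 for Anxa2, chr14:34085729-34085978 for Anxa8 and chr14:25841905-25842154 for Anxa11. Capitals mark matches on either strand to 5 short motifs, and no 2 matches overlapped. The TATA box was searched with the letters TATAAA, which place the start of transcription. The AP-1 site, bound by Fos and Jun proteins, was searched with TGAGTCA. The GC box, bound by Sp factors, was searched with GGGCGG. The E-box, bound by factors such as Myc, was searched with the letters CACGTG. The site of TEAD factors was searched with the letters GGAATG.
Anxa2: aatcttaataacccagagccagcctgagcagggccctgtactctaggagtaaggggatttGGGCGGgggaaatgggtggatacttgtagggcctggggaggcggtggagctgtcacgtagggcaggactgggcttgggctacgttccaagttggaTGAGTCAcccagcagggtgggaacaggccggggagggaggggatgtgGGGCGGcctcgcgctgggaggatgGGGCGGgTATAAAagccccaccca
Anxa8: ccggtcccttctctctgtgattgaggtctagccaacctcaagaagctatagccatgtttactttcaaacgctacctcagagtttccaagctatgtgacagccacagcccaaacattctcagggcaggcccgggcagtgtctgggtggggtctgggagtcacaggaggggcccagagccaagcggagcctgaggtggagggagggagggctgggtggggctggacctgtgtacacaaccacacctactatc
Anxa11: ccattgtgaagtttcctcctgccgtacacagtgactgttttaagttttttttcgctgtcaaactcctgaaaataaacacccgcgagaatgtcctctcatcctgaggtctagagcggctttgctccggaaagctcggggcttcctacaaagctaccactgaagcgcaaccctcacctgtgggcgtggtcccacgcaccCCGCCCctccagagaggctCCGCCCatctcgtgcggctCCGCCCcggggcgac

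The Anxa2 window held a TATA box whose first base lies at position -17 from the start, an AP-1 site at -95 and GC boxes at -190, -48 and -24. Among 32851 windows of the same length, 12.4% held the TATA box, 4.46% the AP-1 site and 32.7% the GC box on either strand. The Anxa8 window held none of the 5 motifs, which says only that those letters are not in these bases. The Anxa11 window held 3 GC boxes on the other strand. GC content was 62.4% with 9 CpG for Anxa2, 58.0% with 4 CpG for Anxa8 and 58.0% with 17 CpG for Anxa11, against medians of 52.4% and 6 over all windows. Of the 10 annexins 8 had an entry, with 11 windows in all, and Anxa3 and Anxa6 had none. The AP-1 site was found in 1 of the 11, the TATA box in 2 and the GC box in 4. The E-box and the TEAD site, held by 6.02% and 12.6% of all windows, were each found in 1.

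**Figure D1:**
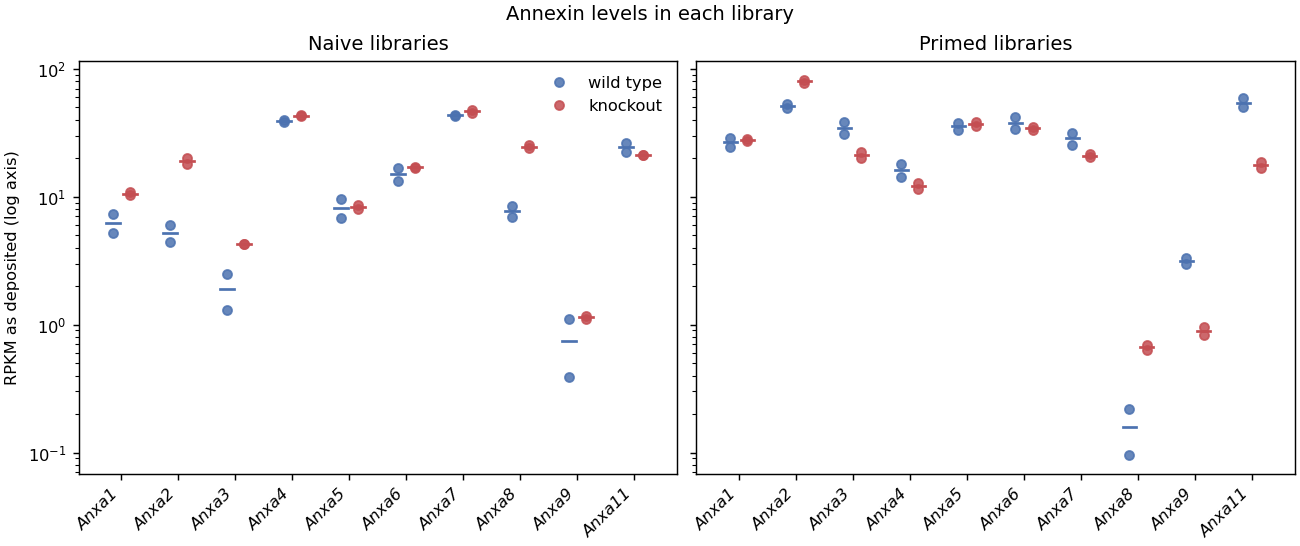
Level of each annexin in each library, in RPKM on a log scale (vertical axis), in naive (left) and primed cells (right), with 1 point per library and a line at the mean of each group of 2. The points of the naive libraries labelled knockout for Anxa2 (20.0 and 18.1) and Anxa8 (25.3 and 24.0) sit above their wild-type points, and the primed knockout points of Anxa11 (18.5 and 16.9) sit below theirs (50.1 and 58.6).

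Among the other annexins in the naive state, Anxa1, whose product binds phospholipid and the S100a11 adaptor and acts on formyl peptide receptors, stood at 7.33 and 5.16 RPKM in the wild type and at 10.2 and 10.8 in the libraries labelled knockout. Anxa3, a short-tailed annexin, stood at 2.51 and 1.31 RPKM against 4.24 and 4.29. Neither overlapped between groups, with log2 differences of 0.68 ± 0.18 and 0.89 ± 0.22 (SE). The rest were within 1.53-fold of the wild type on the group means.

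Anxa4 stood at 39.8 and 38.3 RPKM in the naive wild type and at 43.3 and 42.7 in the libraries labelled knockout, a log2 difference of 0.14 ± 0.15 (SE). Anxa6, the member with a duplicated core, stood at 16.7 and 13.3 RPKM against 16.9 and 17.0, with a difference of 0.17 ± 0.15. Anxa5, whose product binds phosphatidylserine on dying cells, was the 1 member whose naive groups overlapped, at 9.62 and 6.81 RPKM against 8.53 and 8.04. For Anxa4 and Anxa6 the differences were about the size of the SE shared by genes of their level, although the groups did not overlap. After quantile normalization, where the SE drew in part on each gene's own replicates, they were 0.11 ± 0.034 and 0.11 ± 0.032.

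Anxa7 and Anxa11 carry long N-terminal regions that bind calcium sensors. Anxa7 stood at 43.7 and 42.5 RPKM in the naive wild type and at 45.5 and 47.5 in the libraries labelled knockout. Anxa11 stood at 26.3 and 22.2 RPKM against 21.3 and 21.3, the only member whose naive libraries labelled knockout all lay below the wild type. Anxa9, an annexin with weakened calcium binding, stood at 1.11 and 0.386 RPKM against 1.11 and 1.17, and its lower knockout library barely exceeded its higher wild-type library.

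In all, 8 of the 10 annexins lay higher without overlap in the naive libraries labelled knockout, 1 lay lower and 1 overlapped. Of all genes tested, 31.2% lay higher without overlap and 21.0% lay lower. The offset between the naive groups depended on single libraries. The median log2 difference over all genes was 0.18 without naive wild-type library 1 and -0.073 without naive wild-type library 2. Shares without overlap are not compared there, because a group of 1 library overlaps less easily. The 8 annexins became 6 under median centring. The median log2 difference of the 10 was 0.25, beside 0.05 over all genes.

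The naive order of levels also shifted. In the wild type it ran Anxa7, Anxa4, Anxa11, Anxa6, then Anxa5, Anxa8, Anxa1 and Anxa2, whose neighbours overlapped, then Anxa3 and Anxa9. In the libraries labelled knockout it ran Anxa7, Anxa4, Anxa8, Anxa11, Anxa2, Anxa6, Anxa1, Anxa5, Anxa3, Anxa9, with no neighbours overlapping. The summed level of the 10 was 161 and 141 RPKM in the wild type and 196 and 195 in the libraries labelled knockout, and the share of Anxa2 in it was 3.69% and 3.14% against 10.2% and 9.27%.

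In the primed state Anxa2 rose, Anxa11, Anxa9, Anxa3, Anxa7 and Anxa4 fell on the deposited scale, and Anxa1, Anxa5, Anxa6 and Anxa8 were not called, by limma with Benjamini-Hochberg adjustment over all 13428 genes. Of all genes tested, 4.16% were called higher and 59.3% lower, so 5 of 10 members called lower is close to the background. Without overlap between groups, 2 members lay higher and 5 lower, beside 6.77% and 76.4% of all genes. The median log2 difference of the 10 was -0.25, beside -0.53 over all genes. After quantile normalization 7 of the 10 were called higher and 3 lower, beside 39.4% and 34.6% of all genes, and Anxa4, Anxa6 and Anxa7 changed direction. Without primed knockout library 2 there were 2 called lower, without primed wild-type library 2 there were 3, and without either naive wild-type library 2 were called higher.

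Anxa2 stood at 49.0 and 52.9 RPKM in the primed wild type and at 81.9 and 78.0 in the knockout. The groups did not overlap, at 50.9 ± 2.71 and 79.9 ± 2.76 RPKM (SD, n = 2 each), 1.57-fold apart. The log2 difference was 0.64 ± 0.14 (SE, limma, adjusted p = 2.2e-05), or 1.17 above the median of all genes, and 1.01 after quantile normalization (adjusted p = 1.6e-06). Anxa2 ranked as the 271st highest of the 13428 differences. It stayed higher and past the threshold under all 17 alternatives, with log2 differences from 0.59 to 1.33.

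Anxa8, which stood high in naive cells, was below 1 RPKM in primed cells, at 0.0958 and 0.219 RPKM in the wild type and at 0.698 and 0.634 in the knockout. The knockout libraries lay above the wild type without overlap, but the log2 difference of 0.53 ± 0.28 on the log2(RPKM + 1) scale, which understates changes of low genes, did not pass the test (limma, adjusted p = 0.0894). It passed under 8 of the 17 alternatives, among them quantile normalization (0.90, adjusted p = 5.3e-06), with a pseudocount of 0.1 (1.62, adjusted p = 4.3e-04) and without either naive wild-type library (adjusted p = 0.0236 and 0.0234).

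Anxa11, whose product can tether RNA granules to lysosomes, stood at 50.1 and 58.6 RPKM in the primed wild type and at 18.5 and 16.9 in the knockout. The means of 54.3 ± 6.07 and 17.7 ± 1.16 RPKM (SD, n = 2 each) put the knockout at 0.325 of the wild type. The log2 difference was -1.56 ± 0.14 (SE, limma, adjusted p = 2.6e-27), which is -1.03 relative to the median of all genes and -1.06 after quantile normalization. It was the 760th lowest of the 13428 differences, and it kept its direction and its call under all 17 alternatives, between -1.68 and -0.87.

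Anxa9 stood at 2.96 and 3.34 RPKM in the primed wild type and at 0.964 and 0.828 in the knockout, a log2 difference of -1.13 ± 0.27 (SE, limma, adjusted p = 7.4e-05), which is -0.60 relative to the median of all genes and -0.44 after quantile normalization (adjusted p = 0.00615). It kept its direction and its call under the 16 alternatives that could fit it. The value of Anxa9 is uncertain, because the gene overlaps 3 others in the annotation, Cers2, Fam63a (named Mindy1 there) and LOC115489748, and no source used here gives the strand counted. The third of these was not analysed here. Cers2 was at 101 and 108 RPKM in the primed wild type and at 37.6 and 37.5 in the knockout, and Fam63a at 9.23 and 13.9 against 4.99 and 4.62.

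Anxa3 stood at 31.1 and 38.1 RPKM in the primed wild type and at 22.2 and 20.2 in the knockout, a log2 difference of -0.67 ± 0.22 (SE, limma, adjusted p = 0.00493). Relative to the median of all genes this was -0.14, and after quantile normalization -0.15 (adjusted p = 0.0166), while median centring put it at 0.02. The call ended without primed knockout library 1 (adjusted p = 0.0628), primed knockout library 2 (adjusted p = 0.142) or primed wild-type library 2 (adjusted p = 0.064).

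Anxa7 stood at 25.5 and 31.6 RPKM in the primed wild type and at 21.4 and 20.3 in the knockout, and Anxa4 at 14.1 and 17.9 against 12.8 and 11.4. Both fell on the deposited scale, by log2 differences of -0.43 ± 0.13 and -0.37 ± 0.15 (SE, limma, adjusted p = 0.00208 and 0.0192), and both were higher after quantile normalization (0.12 and 0.29), which is also where they lay relative to the median of all genes (0.11 and 0.16). The Anxa7 call ended without primed knockout library 2 (adjusted p = 0.0576). The Anxa4 call ended without naive knockout library 1 (adjusted p = 0.067) or 2 (0.0671), primed knockout library 2 (0.214) or primed wild-type library 2 (0.123), and with the replicate number as a block (0.0908).

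Anxa1, Anxa5 and Anxa6 overlapped between the primed groups. Anxa1 stood at 24.5 and 28.7 RPKM in the wild type and at 28.4 and 27.1 in the knockout, a log2 difference of 0.07 ± 0.18. Anxa5 stood at 33.0 and 37.9 RPKM against 38.1 and 35.8, a difference of 0.06 ± 0.17. Anxa6 stood at 34.0 and 41.9 RPKM against 35.1 and 33.5, a difference of -0.14 ± 0.15, in a gene that overlaps the long noncoding Gm19911, which was not analysed here.

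None of these 3 passed the test as deposited (limma, adjusted p = 0.769, 0.771 and 0.419). Relative to the median of all genes they lay at 0.60, 0.59 and 0.40, and after quantile normalization all 3 were called higher (0.60, 0.54 and 0.34). Anxa6 was called lower without primed wild-type library 1 (-0.28, adjusted p = 0.0326).

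**Figure D2:**
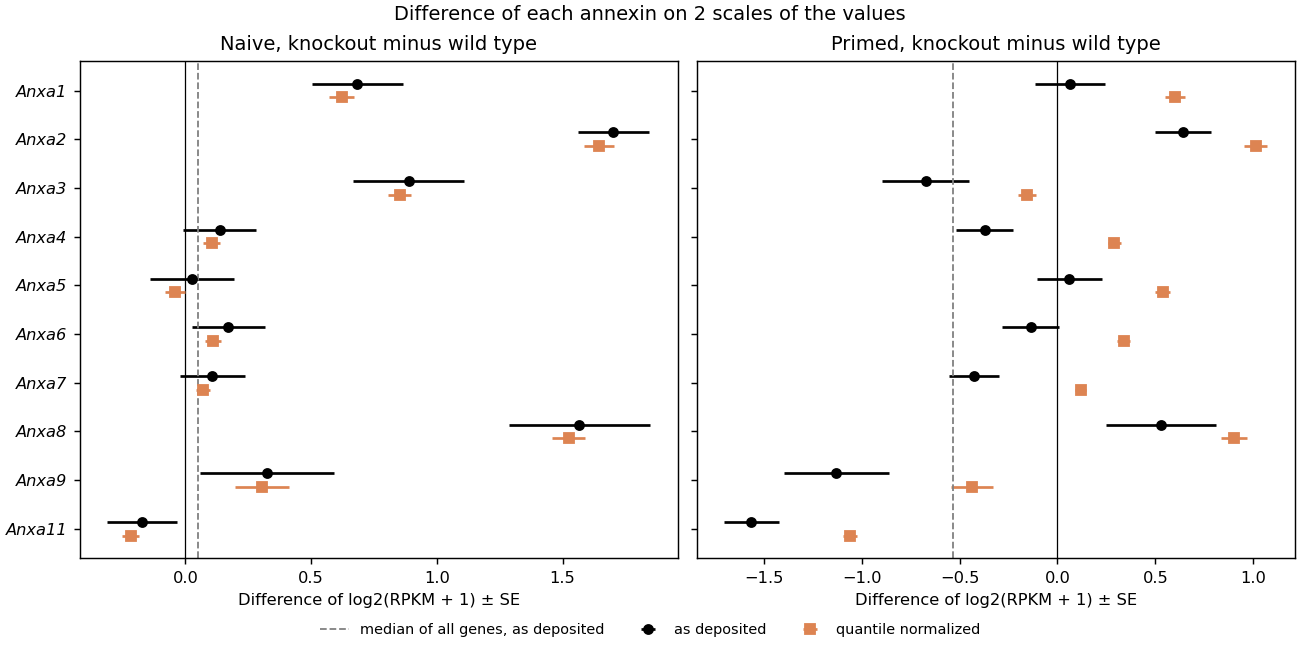
Difference of log2(RPKM + 1), knockout minus wild type, for each annexin (horizontal axis, ± SE) in naive cells (left) and primed cells (right), as deposited (black circles) and after quantile normalization (orange squares), with the median of all genes as a dashed line. Anxa2 and Anxa8 lie to the right of 0 in both panels on both scales, and Anxa11 to the left, while primed Anxa4, Anxa6 and Anxa7 change sign between the scales.

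The primed order of levels in the wild type was Anxa11 and Anxa2, which overlapped, then Anxa6, Anxa5, Anxa3, Anxa7 and Anxa1, whose neighbours overlapped, then Anxa4, Anxa9 and Anxa8. In the knockout Anxa2 came first, followed by Anxa5, Anxa6, Anxa1, Anxa3 and Anxa7, Anxa11, Anxa4, Anxa9 and Anxa8, and only Anxa3 and Anxa7 overlapped. The summed level of the family was 264 and 311 RPKM in the wild type and 260.1 and 245 in the knockout. Within it the share of Anxa2 was 18.5% and 17.0% against 31.5% and 31.9%, and the share of Anxa11 was 18.9% and 18.8% against 7.11% and 6.89%. A share of the family does not change when a whole library is rescaled by 1 factor. The primed offset was not 1 factor, since it varied with level, and an offset of that kind can change shares.

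Levels in the 2 states were compared only by rank within a library, because the 2 states may have been scaled separately before deposit. By percentile among all 24505 genes of a library, Anxa2 stood at 64.5 to 65.6 in the naive wild type, 80.7 to 81.9 in the naive libraries labelled knockout, 91.6 to 92.4 in the primed wild type and 96.8 to 96.9 in the primed knockout. Anxa8 ran the other way between states, at 68.7 to 70.2 and 84.8 to 85.5 in naive cells and at 31.8 to 34.4 and 51.5 to 52.0 in primed cells, and in each state its knockout percentiles were the higher. Anxa1, Anxa3, Anxa5 and Anxa6 ranked higher in the primed wild type than in the naive wild type, with Anxa3 moving from 56.1 to 56.2 up to 87.3 to 87.4. Anxa4 and Anxa7 ranked lower in primed wild type, Anxa4 at 75.0 to 75.5 against 90.8 to 90.9.

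Anxa11 ranked at 92.7 in both primed wild-type libraries and at 83.5 to 83.8 in the primed knockout, which is near its naive ranks of 84.8 to 85.6 in the wild type and 83.0 to 83.2 in the libraries labelled knockout. Anxa9 kept the middle of the range throughout, from 47.8 to 58.0. The annexins outside the described 10 that the libraries list, Anxa10 and Anxa13, lay between 0.0304 and 0.205 RPKM and between 0.0305 and 0.304 RPKM, below the filter.

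**Figure D3:**
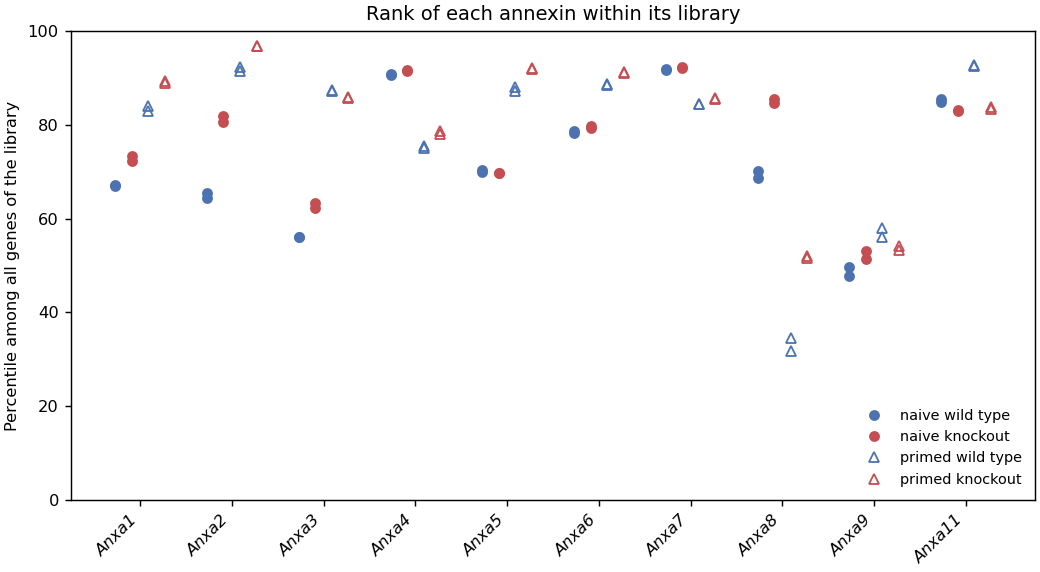
Percentile of each annexin among all genes of its own library (vertical axis), with 1 symbol per library, circles for naive and triangles for primed cells. Anxa2 stands at 64.5 to 65.6 in the naive wild type and at 96.8 to 96.9 in the primed knockout, and Anxa8 at 31.8 to 34.4 in the primed wild type and at 84.8 to 85.5 in the naive libraries labelled knockout.

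Markers of other cell types were read beside the annexin values, since some annexins are abundant in fibroblasts and epithelia. In RNA from whole cultures, fewer cells of a type and less RNA per cell cannot be told apart. In naive cells the 10 fibroblast markers summed to 5.35 to 9.96 RPKM in the wild type and 4.56 to 7.10 in the libraries labelled knockout. Col1a1 was at or below 0.276 and Dcn at or below 0.303 RPKM in each of these 4 libraries, while Twist1 stood at 3.12 to 5.38 and Pdgfrb at 0.510 to 2.32. Of the 8 tested, Pdgfrb was called lower (limma, adjusted p = 0.0366) and none higher, beside 5.85% and 6.08% of all genes. Pdgfrb needed its naive wild-type libraries (2.32 and 1.12 RPKM) to pass the filter, since elsewhere only primed wild-type library 2 reached 1 RPKM (1.29). In primed cells the same markers summed to 64.6 to 86.6 RPKM in the wild type and 39.4 to 44.1 in the knockout, and 7 of the 8 tested were called lower and none higher, beside 59.3% of all genes called lower. After quantile normalization 4 of the 8 were called lower and 1 higher, beside 34.6% and 39.4% of all genes.

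The 9 trophectoderm markers summed to 22.2 to 33.2 and 27.9 to 29.9 RPKM in the naive groups and in the primed state to 67.1 to 80.9 RPKM in the wild type and 93.8 to 100.6 in the knockout. The epithelial keratins Krt8 and Krt18 made up most of that sum, with means of 22.8 and 45.2 RPKM in the wild type and 38.8 and 49.4 in the knockout. Of the 6 tested there, Krt8 and Eomes were called higher and Gata3 lower (2.64 against 0.581 RPKM), beside 4.16% and 59.3% of all genes. Cdx2 and Tfap2c, which were not called, had lower means in the knockout as deposited. Quantile normalization gave 4 called higher, among them Krt18 (0.55) and Tfap2c (0.41), and 1 lower, beside 39.4% and 34.6% of all genes. Gata3 reached 1 RPKM only in the 2 primed wild-type libraries (1.93 and 3.35), so the filter favoured its fall. Of the 8 markers of the primed state, 4 were called higher and 2 lower in primed cells, beside 4.16% and 59.3% of all genes. The mesoderm regulator T stood at 1.94 and 2.89 RPKM against 37.4 and 33.7, and Fgf5 at 4.31 and 5.99 against 19.2 and 17.1, while Sox3 fell from a mean of 15.2 to 4.80 RPKM and Pou3f1 from 17.0 to 8.34. Their log2 differences after quantile normalization were 4.00 for T, 2.32 for Fgf5, -0.75 for Sox3 and -0.25 for Pou3f1. On that scale 6 of the 8 were called higher and 2 lower, beside 39.4% and 34.6% of all genes. The part of these changes in the primed Anxa2 difference was not tested. The 8 markers of pluripotent cells summed to 1501 to 1646 RPKM in the naive wild type and 1776 to 1790 in the naive libraries labelled knockout. In primed cells they summed to 1187 to 1326 RPKM in the wild type and 1151 to 1256 in the knockout. There 2 of the 8 were called higher and 2 lower, beside 4.16% and 59.3% of all genes. Quantile normalization gave 4 higher and 1 lower, beside 39.4% and 34.6% of all genes. Nanog was among those lower, with means of 117 and 37.1 RPKM (log2 difference -1.63, limma, adjusted p = 8.8e-86, or -1.27 after quantile normalization).

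The genes whose profiles over the 8 libraries were nearest to that of Anxa2 were ranked by distance between log2(RPKM + 1) values centred on the wild type of their own state. Anxa8 came first, at a distance of 0.26, but it was chosen together with Anxa2 for its naive rise, so its place restates that choice. Mcam, a cell adhesion molecule, followed at 0.40, at 34.8 and 33.7 RPKM in the naive wild type against 98.0 and 100.3 in the libraries labelled knockout. In primed cells Mcam stood at 26.5 and 32.8 RPKM against 47.6 and 45.8. Cryab, a small heat shock protein, lay at 0.48, Ms4a10 at 0.53 and Mlana, a melanosome protein, at 0.71. Ms4a10 and Mlana resembled Anxa8 in being low in all 4 primed libraries, where they reached at most 0.343 and 0.638 RPKM.

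The S100 proteins are small calcium sensors, several of which pair with annexins. In naive cells 2 of the 8 tested were called higher and none lower, and in primed cells 3 were called higher and 2 lower (limma with Benjamini-Hochberg adjustment), beside 6.08% and 5.85% of all genes in the naive state and 4.16% and 59.3% in the primed state. The primed shares of all genes were 39.4% and 34.6% after quantile normalization. After quantile normalization 5 were called higher and none lower in primed cells, and as deposited no S100 gene was called lower without primed knockout library 1 or primed wild-type library 2. S100a10, the partner of Anxa2, stood at 35.3 and 33.0 RPKM in the naive wild type and at 51.8 and 48.4 in the libraries labelled knockout, and rose by 0.54 ± 0.11 (SE, log2, adjusted p = 1.8e-05, or 0.0575 when no variance trend was fitted). In primed cells it stood at 63.8 and 71.2 RPKM against 91.0 and 89.1 and rose by 0.41 ± 0.11 (adjusted p = 3.3e-04), with 0.74 after quantile normalization. S100a10 was thus higher in both states without overlap, by less than Anxa2 in each.

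S100a6, which binds several annexins, rose from a mean of 4.35 to 10.2 RPKM in naive cells (log2 difference 1.09, limma, adjusted p = 1.1e-08) and from 33.9 to 48.1 in primed cells (0.50, adjusted p = 0.00707, or 0.95 after quantile normalization), where the call ended without primed knockout library 1 (0.157) or 2 (0.0764). S100a4 rose in primed cells from 0.858 to 3.37 RPKM (1.24, limma, adjusted p = 2.8e-06, or 1.88 after quantile normalization). It needed its primed knockout libraries (4.02 and 2.73 RPKM) to pass the filter, since elsewhere only primed wild-type library 2 reached 1 RPKM (1.19). S100a11, the partner of Anxa1, did not pass in either state as deposited, at 33.4 against 39.1 RPKM in naive cells (adjusted p = 0.297) and 30.3 against 32.8 in primed cells (adjusted p = 0.421). After quantile normalization it was called higher in both (0.19 and 0.61, limma, adjusted p = 0.00609 and 4.2e-06). S100z reached 1 RPKM only in the 2 primed wild-type libraries (1.04 and 2.80). It was thus tested only through the group where it was high, and the filter favoured a fall. S100z and S100a1 fell in primed cells on the deposited scale (-0.87 and -0.83, adjusted p = 0.00106 and 0.00639), and neither call held after quantile normalization (adjusted p = 0.278 and 0.632) or without primed knockout library 1 or primed wild-type library 2, nor did that of S100a1 without primed knockout library 2 (adjusted p from 0.0675 to 0.161).

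The cell-surface plasminogen genes had 3 of 8 called higher and none lower in naive cells, where 6.08% and 5.85% of all genes were. In primed cells 2 were called higher and 4 lower, beside 4.16% and 59.3%. After quantile normalization 5 were called higher and 2 lower, beside 39.4% and 34.6% of all genes. As deposited the primed count was 1 higher without either primed knockout library or primed wild-type library 1, and 1 lower without primed knockout library 2. Serpine2, an inhibitor of plasminogen activators and thrombin, rose in both states, from 10.5 to 30.9 RPKM in naive cells (log2 difference 1.47, limma, adjusted p = 9.2e-32) and from 54.5 to 150 RPKM in primed cells (1.45, adjusted p = 3.8e-32, or 1.77 after quantile normalization). Plat, the tissue plasminogen activator, rose in primed cells from 12.8 to 22.2 RPKM (0.75, adjusted p = 0.0141, or 1.36 after quantile normalization), and the call ended without either primed knockout library or primed wild-type library 1 (adjusted p from 0.0592 to 0.205).

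The plasminogen receptor Plgrkt and the urokinase receptor Plaur went up in naive cells and down in primed cells on the deposited scale. Plgrkt went from 13.3 to 21.1 RPKM (0.63, limma, adjusted p = 0.00198) and from 23.8 to 16.5 (-0.50, adjusted p = 0.00469), which became 0.09 after quantile normalization. Plaur went from 1.27 to 2.89 RPKM (0.81, adjusted p = 0.0247) and from 17.3 to 8.31 (-0.96, adjusted p = 9.1e-04), which became -0.28 after quantile normalization. The naive calls of both ended without either naive knockout library or naive wild-type library 2, that of Plaur also without either primed knockout library (adjusted p from 0.096 to 0.466), and the primed calls ended without primed knockout library 2 (0.0878 for Plgrkt and 0.0628 for Plaur). Eno1 fell in primed cells from 2.11 to 0.472 RPKM (-1.06, limma, adjusted p = 9.4e-05, or -0.44 after quantile normalization), a value that is uncertain because the gene has near-identical copies. It needed its primed wild-type libraries (1.55 and 2.67 RPKM) to pass the filter, since elsewhere only naive wild-type library 1 reached 1 RPKM (1.26).

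Among 4 tested genes of annexin A1 signalling and prostaglandin and leukotriene synthesis, 2 were called higher in naive cells and 1 in primed cells, with none lower. Of all genes, 6.08% were called higher and 5.85% lower in naive cells, and 4.16% and 59.3% in primed cells. The cyclooxygenases Ptgs1 and Ptgs2 went from 0.787 to 2.71 RPKM and from 1.26 to 3.46 RPKM in naive cells (1.09 and 1.02, limma, adjusted p = 0.00105 and 0.0031). Both calls ended without either naive knockout library, and that of Ptgs2 without naive wild-type library 2 (adjusted p from 0.0504 to 0.166). Alox5, the arachidonate lipoxygenase, rose in primed cells from 2.52 to 7.63 RPKM (1.32, adjusted p = 8.2e-06, or 2.01 after quantile normalization). After quantile normalization 3 of the 4 were called higher in primed cells, where 39.4% of all genes were.

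Copines are another family that binds phospholipid through calcium, and Cpne2 rose in both states, from 7.07 to 20.5 RPKM in naive cells (1.43, limma, adjusted p = 2.7e-09) and from 4.07 to 16.4 in primed cells (1.80, adjusted p = 1.2e-15, or 2.48 after quantile normalization). Of 6 copines tested, 2 were called higher in naive cells and none lower, beside 6.08% and 5.85% of all genes. In primed cells 1 was called higher and 3 lower, beside 4.16% and 59.3%. These primed shares of all genes were 39.4% and 34.6% after quantile normalization. After quantile normalization the primed count was 2 higher and 2 lower, and as deposited it was 2 higher without primed wild-type library 2. Cpne1 rose in naive cells from 35.7 to 48.7 RPKM (0.44, adjusted p = 0.0036), a call that ended without either naive knockout library (adjusted p = 0.148 and 0.200). Cpne7, Cpne4 and Cpne3 fell in primed cells on the deposited scale (-1.07, -1.02 and -0.67, or -0.28, -0.58 and -0.037 after quantile normalization). Cpne4 reached 1 RPKM only in the 2 primed wild-type libraries (1.24 and 1.56). It was thus tested only through the group where it was high, and the filter favoured a fall. Under median centring the call of Cpne4 ended (-0.33, limma, adjusted p = 0.0877) and Cpne3 moved to 0.02.

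The genes of membrane repair and annexin binding had 1 of 18 called higher and 1 lower in naive cells, near the 6.08% and 5.85% of all genes. In primed cells 2 were called higher and 7 lower, beside 4.16% and 59.3% of all genes. After quantile normalization 13 were called higher and 4 lower in primed cells, where the shares of all genes also turned, to 39.4% and 34.6%. As deposited, leaving out 1 library gave 0 to 3 higher and 5 to 10 lower, with 0 higher without primed knockout library 1. In naive cells it gave 3 higher without either primed wild-type library. Pdcd6ip, an adaptor of the ESCRT machinery that seals membranes, rose in primed cells from 38.0 to 50.5 RPKM (0.41, limma, adjusted p = 0.00173, or 0.85 after quantile normalization), a call that ended without primed knockout library 1 (0.0532). Cav1, the caveolar coat protein, went from 2.75 to 4.66 RPKM (0.62, adjusted p = 0.0309, or 1.36 after quantile normalization), and its call ended without either naive or primed knockout library and without primed wild-type library 1 (adjusted p from 0.0745 to 0.295).

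Sri, the calcium sensor that binds annexin A7, fell in primed cells from 12.0 to 5.15 RPKM (-1.06, limma, adjusted p = 4.4e-05, or -0.34 after quantile normalization). Chmp2a, an ESCRT subunit, rose in naive cells (0.41, adjusted p = 4.9e-04, or 0.195 without naive knockout library 2) and fell in primed cells (-0.65, adjusted p = 2.0e-10), and moved to 0.05 in primed cells under median centring. Capn1, a calcium-activated protease, fell on the deposited primed scale (-0.57, adjusted p = 0.0178) but lay at 0.21 after quantile normalization. The call of Capn1 ended without either naive or primed knockout library and without primed wild-type library 2, and that of naive Chmp4b (-0.29, adjusted p = 0.0495) without each library left out except the 2 primed wild types (adjusted p from 0.0626 to 0.593 over both genes).

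Over the 44 partner genes tested, 10 were called higher and 1 lower in naive cells, beside 6.08% and 5.85% of all genes, with a median log2 difference of 0.15 beside 0.05 over all genes. In primed cells 9 were called higher and 16 lower, beside 4.16% and 59.3% of all genes, with a median of -0.12 beside -0.53 over all genes. After quantile normalization the counts were 19 and 7 in naive cells, beside 32.0% and 27.4% of all genes, and 28 and 8 in primed cells, where 39.4% of all genes were called higher and 34.6% lower. The naive count of 10 dropped to 5 without naive knockout library 1 and to 4 without naive knockout library 2, and the primed counts went to 5 higher without primed knockout library 1 and to 10 lower without primed knockout library 2.

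**Figure D4:**
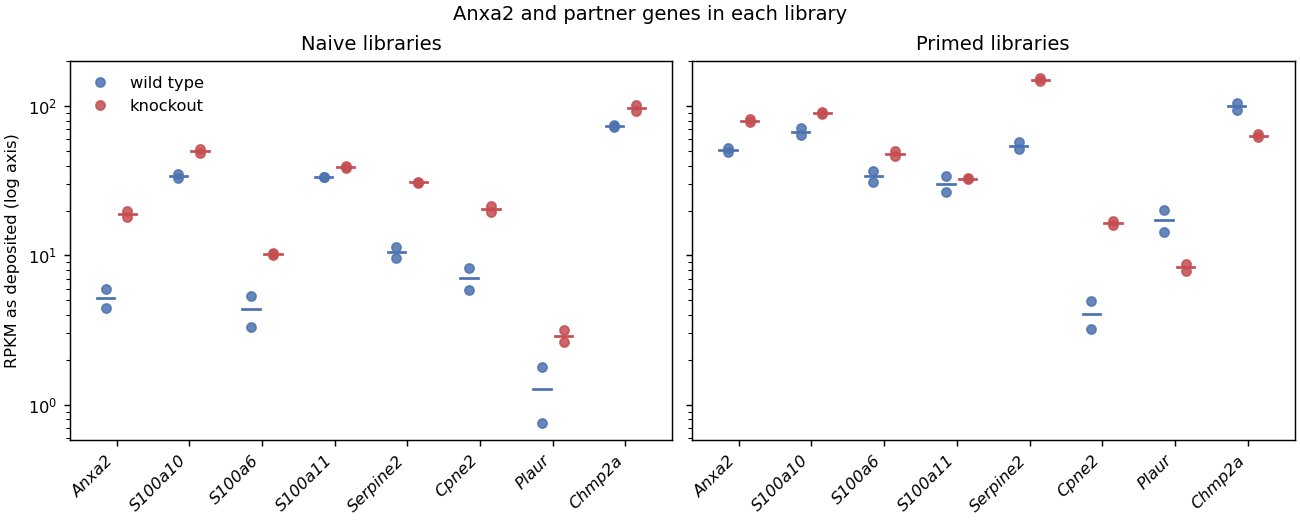
Level of Anxa2 and 7 partner genes in each library, in RPKM on a log scale (vertical axis), in naive (left) and primed cells (right), with 1 point per library and a line at the mean of each group of 2. S100a10, Serpine2 and Cpne2 lie higher in the libraries labelled knockout of both states, while Plaur lies higher in the naive libraries labelled knockout and lower in the primed knockout.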

How the data were processed

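RNA was measured in 8 libraries, 2 per group. The values are deposited RPKM, 1 per gene and library; cutadapt 1.9, STAR 2.5.2b, featureCounts 1.5.1, affy and build mm9 were used per the submitters' processing notes, with strand and parameters not given in the sources used here. The deposited RPKM were scaled further by a method that no source used here names: no value is 0, and all 4017 (naive) and 4501 (primed) genes that share a value in the first library of a state share one in all 4 of its libraries, of which 3208 do so in the other state too. Such scaling can move low genes and whole groups. Read counts cannot be had, so counting error is unknown.

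From these values log2(RPKM + 1) was computed, and limma 3.58.1 in R 4.3.3 (4 group means, trended variance, Benjamini-Hochberg adjustment, threshold 0.05) was run on 13428 genes (1 RPKM or more in 2 or more libraries), after it had been tested on simulated data. ± gives the SD over libraries for levels and the SE for log2 differences. For deposited values that SE is the one shared by genes of like level. The naive contrast chose the annexins and is described only. The members and the partner and marker lists were chosen with earlier results of these data known. Named were all 10 annexins, Anxa10, Anxa13, S100a10, S100a11, up to 3 called genes per partner list, direction and state by size of the difference, the 5 named genes nearest to Anxa2 and Ino80. Fpr1, Fpr2 and Fpr3 lay below the filter, and Ahnak2 was not analysed here.

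Alternatives were quantile, loess and median scaling, another pseudocount, other filters, each state alone, no variance trend, a replicate block and each library left out in turn. Replicate numbers were checked as pairs by the correlation of same-numbered deviations from the group means, which was 0.31 in naive and -0.04 in primed cells. Markers of haematopoietic cells summed to 28.2 to 33.5 RPKM in naive wild type, 23.1 to 23.9 in naive libraries labelled knockout and 4.42 to 5.33 in primed libraries. Of the 2 tested, Cd3e had naive means of 11.4 and 2.08 RPKM and Cd68 of 18.8 and 20.9. Those of primitive endoderm summed to at most 7.27. Naive-state markers summed to 812 to 921 RPKM in naive libraries, 8.07 to 11.2 in primed wild type and 3.40 to 3.43 in primed knockout. Primed-state markers summed to 23.4 to 33.3 RPKM in naive libraries, 246 to 288 in primed wild type and 296 to 317 in primed knockout. Promoter sequences come from RefSeq's GRCm38.p6.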

Additional observations from a re-analysis of the deposited data

Results flagged for a closer look

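Anxa3, Anxa4, Anxa7 and Anxa9 lay higher without overlap in the naive libraries labelled knockout and lower without overlap in the primed knockout. The primed log2 difference minus the naive one was -1.56 for Anxa3, -0.51 for Anxa4, -0.53 for Anxa7 and -1.45 for Anxa9. These differences between the states were not tested, because the naive values took part in the choice of genes. The median of all genes was itself -0.53 between the primed groups and 0.05 between the naive groups, and after quantile normalization primed Anxa4 and Anxa7 lay higher (0.29 and 0.12).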

How the results depend on the processing

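Primed Anxa2, Anxa11 and Anxa9 kept direction and call under each alternative that could fit them; the filter at 5 RPKM removed Anxa9. Over all annexin differences and alternatives, 291 values kept direction and side of the threshold or stayed within 1 SD, 13 changed direction, 15 gained a call, 12 lost one and 7 untested ones moved by more than 1 SD. The count of changed directions leaves out naive Anxa5, because its groups overlapped. Its difference went from 0.028 to -0.042, -0.029 and -0.060 under quantile, centring and loess scaling. Under quantile, centring and loess scaling in turn, primed Anxa4 became 0.29, 0.32 and 0.26, Anxa6 0.34, 0.56 and 0.30, Anxa7 0.12, 0.27 and 0.095, Capn1 0.21, 0.12 and 0.22, and Plgrkt 0.094, 0.19 and 0.060. Median centring also turned Anxa3 (0.022), Chmp2a (0.046) and Cpne3 (0.022). Without primed wild-type library 1, primed Anxa1 (-0.045), Anxa5 (-0.036) and S100a11 (-0.062) turned, as did Anxa6 (0.010) without primed wild-type library 2. Leaving out 1 library moved Anxa1 between -0.045 and 0.18, Anxa5 between -0.036 and 0.16 and Anxa6 between -0.28 and 0.010.

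Under the same 3 scalings, primed annexins called higher numbered 7, 6 and 7 in place of 1, and those called lower 3, 2 and 3 in place of 5. They numbered 2 higher with a pseudocount of 0.1 or no variance trend, and 2 higher and 3 lower with each state alone. Leaving out 1 library gave 1 to 2 higher and 2 to 6 lower. Naive annexins lower without overlap numbered 2 in place of 1 under quantile and loess scaling. Leaving out 1 library gave 1 to 2 of these and 8 to 9 higher without overlap. A group left with 1 library overlaps less easily, so such counts without overlap can rise for that reason alone. Called partner genes numbered, under quantile, centring and loess scaling in turn, 28, 30 and 28 higher and 8, 4 and 8 lower in primed cells. In naive cells quantile scaling gave 19 and loess 18 higher, and lower calls numbered 7, 2 and 5. Lower naive partner calls were 0 with a pseudocount of 0.1, no filter or no variance trend. Leaving out 1 library gave 4 to 13 higher and 0 to 2 lower naive partner calls, and 5 to 12 and 10 to 19 primed ones. The cause of these changes was not tested.

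Same-numbered libraries were not shown to be pairs. With the replicate number as a block, the calls over all genes went from 816 to 439 higher and 786 to 503 lower in naive cells and from 559 to 451 higher and 7958 to 7221 lower in primed cells. The block ended the call of primed Anxa4 (adjusted p = 0.0908, limma) and left 0 naive partner genes lower. Over all genes, naive calls also numbered 4293 higher and 3685 lower under quantile scaling. With 2 libraries per group and no counts, small differences and genes near 1 RPKM are the least certain.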
